A study of Mus musculus with 9 samples.

Results

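Lipid-associated scar macrophages are described by a short list of 10 marker genes: Gpnmb, Trem2, Cd9, Lgals3, Cd68, Spp1, Fabp5, Lpl, Clec7a and Cd63. Their levels were compared in the livers of 3 mouse genotypes. A gene was represented by the probe set annotated to it alone with the highest mean over all 9 arrays. This rule gave a value for 9 of the 10 genes, out of 19938 genes with such a probe set in the table; Spp1, which encodes osteopontin, was not analysed here.

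Each genotype had 3 arrays of whole liver RNA from male mice aged 8 to 9 weeks, on a C57/BL6 background and standard chow. The labelled double knockout combined loss of NEMO in hepatocytes with a constitutive loss of p21, the product of Cdkn1a, in every cell. The NEMO knockout (NEMOΔhepa) lacked NEMO, encoded by Ikbkg and needed by the IκB kinases to activate NF-κB, in hepatocytes. Wild type mice carried neither change. Macrophages keep NEMO in both knockout groups, and in the labelled double knockout they are stated to lack p21 like all other cells. Which Cre driver was used, and whether wild type mice were littermates with the unrecombined allele, was not given in the labels. No group lacked p21 alone. The samples are separate by their identifiers only, so p-values measure the spread between these samples.

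Scar macrophages arise when monocyte-derived cells settle in injured, lipid-rich or fibrotic tissue. TREM2, a lipid-binding receptor, signals through the adaptor DAP12 (Tyrobp) and the kinase SYK, and cells of this kind carry genes for the uptake, storage and lysosomal breakdown of lipid. In liver they are found beside collagen bands and regions of cell death, whereas resident Kupffer cells express Clec4f, Timd4 and Vsig4. Most genes of the list are also expressed outside macrophages: CD9 and CD63 on platelets and many epithelia, LPL in fat and muscle, and FABP5 in epithelia.

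The libraries were checked first. Ikbkg read 8.10, 8.26 and 8.45 (log2) in the labelled double knockout, 8.23, 8.47 and 8.35 in the NEMO knockout and 8.73, 8.89 and 8.98 in wild type, so both knockout groups lay below wild type. The signal for Cdkn1a, from a probe set it shares in the annotation with 4930567H12Rik, was not lower in the labelled double knockout, against the label. Values were 11.1, 10.1 and 11.1 in the labelled double knockout, 9.76, 10.7 and 9.83 in the NEMO knockout and 8.54, 9.64 and 7.83 in wild type. Where its probes lie relative to the deleted part was not analysed here. Every direction below for the labelled double knockout therefore rests on its label. Albumin, the defining hepatocyte product, was at 13.7 to 13.8 on all 9 arrays. Its mean signal was above that of 99.97% of probe sets, and whether a change would show at that level was not tested. NEMO knockout replicate 1 had the lowest array weight, 0.412. With that array left out, the counts of markers called higher below stayed at 8 of 9 in both comparisons with wild type.

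Relative to wild type, 8 of the 9 measured markers rose in the NEMO knockout and none fell. Gpnmb rose 11.8-fold and Clec7a 5.25-fold, and 7 of the 8 rose at least 2-fold, all except Cd63. Trem2 (1.0004 on the log2 scale) and Cd63 (0.98) lay on either side of that limit, and their sides depended on the scaling. Trem2 was at 0.94 with arrays centred on their medians and 0.93 with quantile normalisation, and Cd63 at 1.005 with cyclic loess. The other 6 (Lpl, Lgals3, Cd68, Cd9, Trem2 and Cd63) rose between 1.97-fold and 2.63-fold. Fabp5 did not pass. Over all 28939 probe sets 7.68% were called in this comparison at an adjusted p under 0.05 in limma. Of all, 5.66% were called higher, 2.02% lower and 1.32% higher by at least 2-fold. The shares over all probe sets, here and below, include dim ones and ones without a symbol, while each marker is its gene's brightest. With only probe sets above the median of all means, 1601 were called higher, against 1638 over all. The share called among brighter probe sets was thus larger than the share over all. The median difference of the 9 genes was 1.22 on the log2 scale, against -0.04 over all probe sets. In 8 of the 9 genes every knockout array lay above every wild type array, an arrangement found in 11.4% of all probe sets; the opposite one was found in 11.8% of all and in 0 of the 9. In whole liver, more cells of a type and more RNA per cell cannot be told apart.

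In the labelled double knockout the same 8 genes rose relative to wild type and Fabp5 fell. The median difference was 1.37, against -0.03 over all probe sets, of which 9.32% were called, 5.81% higher and 3.51% lower. At least 2-fold increases were called in 6 of the 9, against 1.48% of all. The 8 genes again had no overlap between the groups, with all arrays above wild type in 11.6% of all probe sets. Fabp5 had all arrays below, as did 13.5% of all probe sets. Both comparisons use the same 3 wild type arrays. Between the labelled double knockout and the NEMO knockout none of the 9 genes was called, where 0.197% of all probe sets were, 0.0864% higher and 0.111% lower. Every array of the labelled double knockout lay above every NEMO knockout array in 1 of the 9, against 4.99% of all probe sets, and below in 2, against 5.75% of all.

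**Figure D1:**
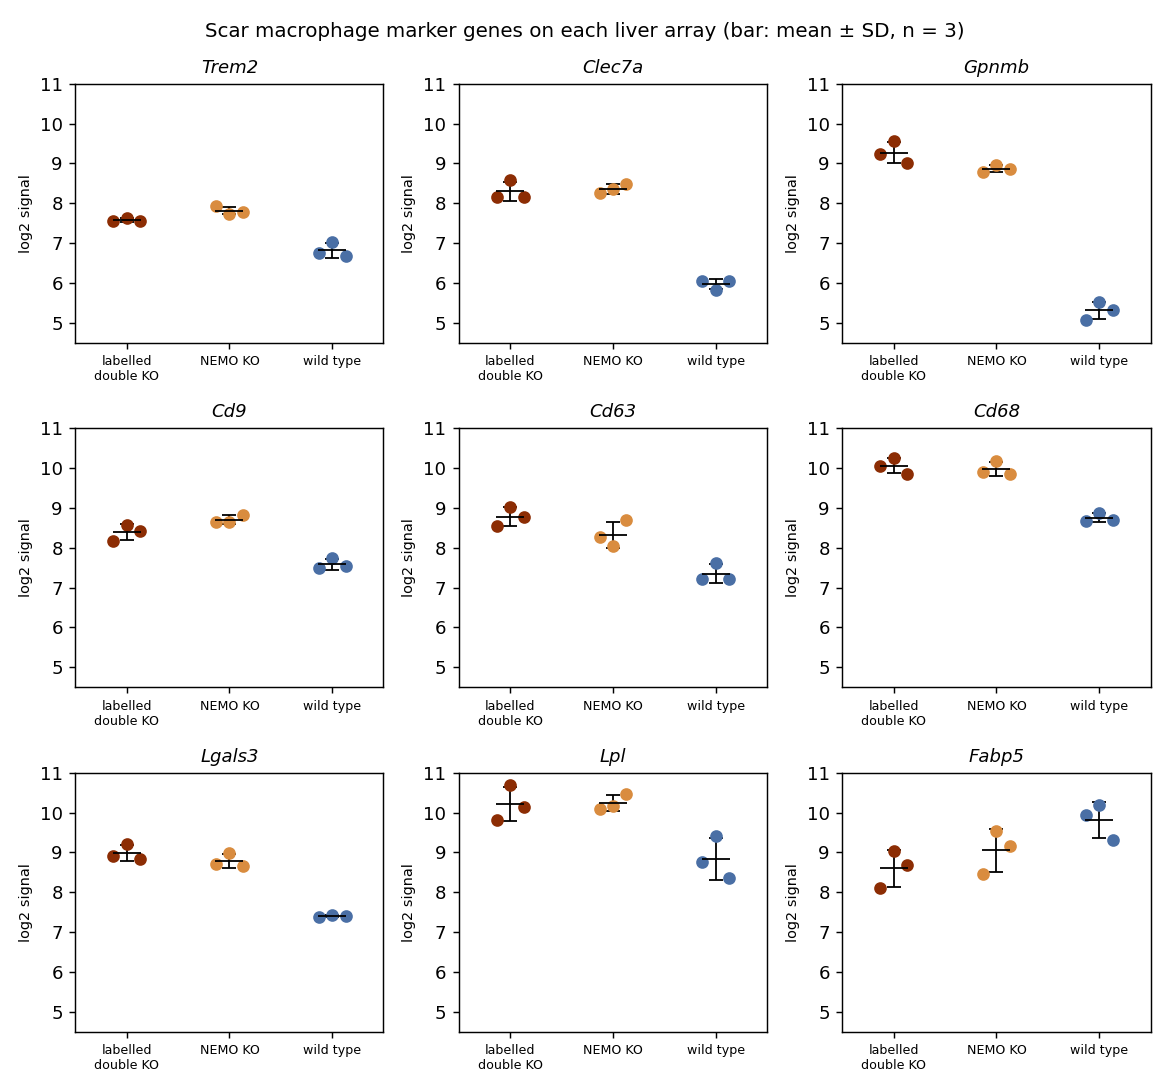
Log2 signal of the 9 measured marker genes on each array, with points for single arrays and bars for the mean ± SD of 3 arrays in the labelled double knockout, the NEMO knockout and wild type. For Gpnmb the knockout arrays lie at 8.80 to 9.56 and the wild type arrays at 5.08 to 5.53; Fabp5 is the one gene whose wild type mean is the highest of the 3.

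The receptors are described first. Trem2 encodes the lipid-sensing receptor that gives this macrophage state its name in several tissues. It read 7.55, 7.63 and 7.55 in the labelled double knockout, 7.92, 7.74 and 7.79 in the NEMO knockout and 6.74, 7.03 and 6.68 in wild type. Wild type was lowest on every array, and each array of the labelled double knockout lay below each of the NEMO knockout. Replicates 1 and 3 of the labelled double knockout have the same value, which the median polish in RMA can give. Such ties occurred in other genes named below too, such as Csf1r (9.75) and Syk (7.39) in replicates 1 and 2 of that group. Trem2 was 1.0004 ± 0.10 (SE) higher in the NEMO knockout than in wild type (2.001-fold, limma adjusted p = 0.000467) and 0.76 ± 0.10 higher in the labelled double knockout (1.70-fold, limma adjusted p = 0.00134).

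Clec7a encodes Dectin-1, a C-type lectin receptor for fungal glucans that also signals through SYK. It read 8.15, 8.58 and 8.16 in the labelled double knockout, 8.25, 8.35 and 8.49 in the NEMO knockout and 6.04, 5.82 and 6.05 in wild type. The knockout groups overlapped each other and stood clear of wild type. The increase was 2.39 ± 0.13 in the NEMO knockout (limma adjusted p = 8.23e-05) and 2.32 ± 0.13 in the labelled double knockout (5.01-fold, limma adjusted p = 8.46e-05). Among genes with a probe set of their own, Clec7a had the 16th largest positive difference in the NEMO knockout and the 37th in the labelled double knockout.

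Gpnmb encodes a transmembrane glycoprotein of late endosomes and lysosomes that is abundant in lipid-laden macrophages. It read 9.24, 9.56 and 9.02 in the labelled double knockout, 8.80, 8.96 and 8.85 in the NEMO knockout and 5.08, 5.53 and 5.33 in wild type. All 3 groups were separate, with the labelled double knockout highest. The increase over wild type was 3.56 ± 0.15 in the NEMO knockout (limma adjusted p = 2.93e-05) and 3.96 ± 0.15 in the labelled double knockout (15.6-fold, limma adjusted p = 1.09e-05). In the labelled double knockout it was the largest positive difference among genes with a probe set of their own. The wild type means of Gpnmb (5.31) and Clec7a (5.97) were below 6.53, the median of all probe set means, and the table gives no detection call that would say whether they were above background.

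Promoter sequence is shown for Gpnmb and for Cd68, described next, because they are the markers whose RefSeq promoters hold the AP-1 motif TGACTCA, the site bound by FOS and JUN proteins. The window of Gpnmb is chr6:49036468-49036542 (GRCm38.p6, plus strand), from 50 bases before to 25 bases after the annotated start. That of Cd68 is chr11:69666171-69666335 (minus strand), the 165 bases before the start. Capitals mark the motif on either strand.
Gpnmb: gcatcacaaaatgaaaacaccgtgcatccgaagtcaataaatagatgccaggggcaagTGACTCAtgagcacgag
Cd68: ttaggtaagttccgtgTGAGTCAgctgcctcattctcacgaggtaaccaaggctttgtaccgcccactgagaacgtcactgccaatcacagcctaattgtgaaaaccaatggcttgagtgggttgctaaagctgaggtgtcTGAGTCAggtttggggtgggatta
The motif began 9 bases after the start in Gpnmb, and 149 and 24 bases before it in Cd68. RefSeq promoter entries were matched for 7 of the 9 genes, all except Lpl and Fabp5, and 2 of the 7 held the motif, against 5.17% of 27025 gene promoters. The core of the PU.1 motif, GAGGAA, was in 4 of the 7 (Trem2, Cd68, Clec7a and Cd63), against 28.3% of all. CATGTG was in 1 (Cd9), against 14.1% of all, and CACGTG in 0, against 7.24% of all. Motifs were searched on both strands and the matches are a description of these windows only.

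Cd68 encodes macrosialin, a heavily glycosylated protein of macrophage lysosomes. It read 10.1, 10.3 and 9.86 in the labelled double knockout, 9.89, 10.2 and 9.84 in the NEMO knockout and 8.68, 8.88 and 8.69 in wild type. The knockout groups overlapped and lay above wild type, by 1.31 ± 0.12 in the labelled double knockout (2.48-fold, limma adjusted p = 0.00032) and 1.22 ± 0.12 in the NEMO knockout (2.33-fold, limma adjusted p = 0.000561). Cd63 encodes a tetraspanin of late endosomes and secreted vesicles. It read 8.54, 9.01 and 8.78 in the labelled double knockout, 8.26, 8.04 and 8.69 in the NEMO knockout and 7.22, 7.62 and 7.21 in wild type. NEMO knockout replicate 3 was the highest of its group and lay inside the spread of the labelled double knockout arrays. The increase over wild type was 1.43 ± 0.18 in the labelled double knockout (2.69-fold, limma adjusted p = 0.00153) and 0.98 ± 0.18 in the NEMO knockout (1.97-fold, limma adjusted p = 0.0111).

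Cd9, a tetraspanin of the cell surface, and Lgals3, which encodes the β-galactoside-binding lectin galectin-3, had moderate increases. Cd9 read 8.18, 8.57 and 8.41 in the labelled double knockout, 8.66, 8.64 and 8.82 in the NEMO knockout and 7.48, 7.73 and 7.53 in wild type. Each NEMO knockout array was above each labelled double knockout array, as for Trem2. Lgals3 read 8.92, 9.22 and 8.84 in the labelled double knockout, 8.70, 8.98 and 8.66 in the NEMO knockout and 7.38, 7.42 and 7.39 in wild type. Its wild type arrays lay within 0.04 of each other, the narrowest wild type range of the 9 genes. Cd9 rose by 0.80 ± 0.11 in the labelled double knockout (limma adjusted p = 0.00214) and 1.13 ± 0.11 in the NEMO knockout (limma adjusted p = 0.000539), and Lgals3 by 1.60 ± 0.11 (limma adjusted p = 0.000141) and 1.38 ± 0.11 (limma adjusted p = 0.00025) in the same order of groups.

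Of the lipid genes, Lpl rose in both knockout groups and Fabp5 fell in the labelled double knockout. Lpl encodes lipoprotein lipase, which releases fatty acids from circulating triglyceride. It read 9.82, 10.7 and 10.1 in the labelled double knockout, 10.1, 10.2 and 10.5 in the NEMO knockout and 8.77, 9.40 and 8.35 in wild type. Wild type replicate 2 was the nearest to the knockout groups, but the groups did not overlap. Lpl rose by 1.37 ± 0.27 in the labelled double knockout (limma adjusted p = 0.0135) and by 1.40 ± 0.27 in the NEMO knockout (limma adjusted p = 0.014). Without NEMO knockout replicate 3 the second call ended (1.29, adjusted p = 0.0632).

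Fabp5 encodes the epidermal fatty acid-binding protein, a cytosolic carrier of fatty acids. It read 8.11, 9.02 and 8.68 in the labelled double knockout, 8.47, 9.54 and 9.15 in the NEMO knockout and 9.95, 10.2 and 9.31 in wild type. Every labelled double knockout array was below every wild type array, while NEMO knockout replicate 2 reached into the wild type range. In the labelled double knockout it fell by 1.21 on the log2 scale (SE 0.32, 2.32-fold lower, limma adjusted p = 0.0478), and the NEMO knockout was at -0.77 ± 0.32 (limma adjusted p = 0.224), or at -0.47 without NEMO knockout replicate 1. The call in the labelled double knockout lay just under the threshold. Leaving out wild type replicate 1 gave an adjusted p of 0.135, and leaving out wild type replicate 2 gave 0.155. Without NEMO knockout replicate 3 it was 0.0734, and without replicate 1 or replicate 3 of the labelled double knockout 0.156 and 0.115. A fit to those 2 groups alone gave 0.0612, and the adjustment over all probe sets, controls included, gave 0.0805. A second Fabp5 probe set gave -1.25 ± 0.33 in the labelled double knockout and -0.79 ± 0.33 in the NEMO knockout (limma adjusted p = 0.045 and 0.217). Both sets are annotated to the same transcripts and are not independent, and signal from near-identical gene copies could not be separated.

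**Figure D2:**
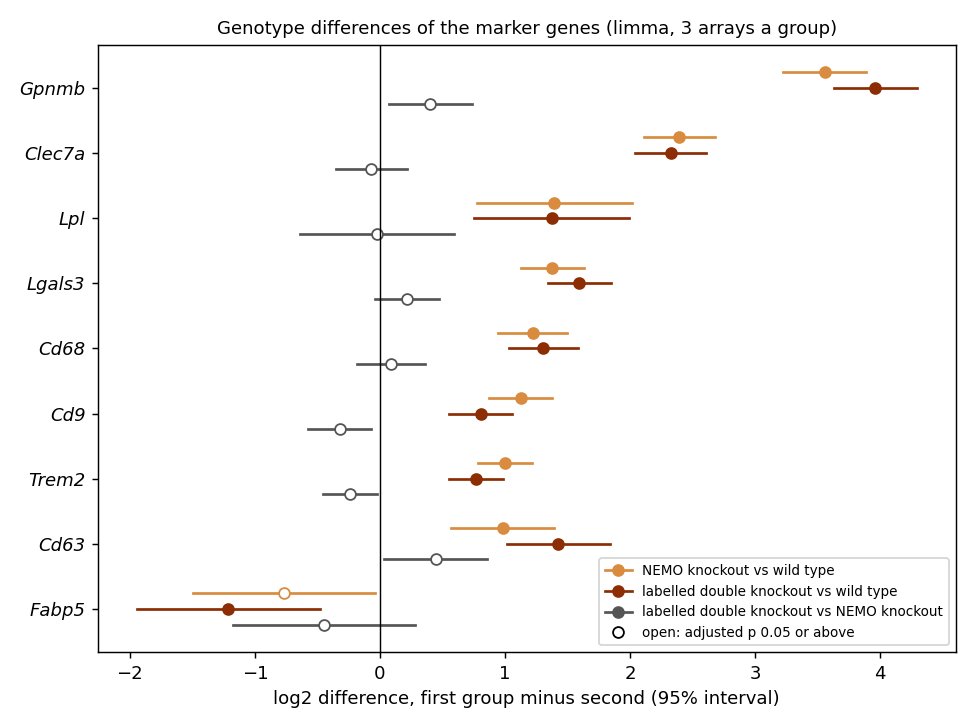
Log2 differences of the 9 marker genes in 3 genotype comparisons, with 95% confidence intervals from limma. Filled points passed the adjusted threshold; Gpnmb (3.56 and 3.96) and Clec7a (2.39 and 2.32) stand above the other genes against wild type, Fabp5 is below 0, and all points for labelled double knockout minus NEMO knockout are open.

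The genes varied among themselves in how the knockout groups compared. The differences of the labelled double knockout from the NEMO knockout ran from -0.45 (Fabp5) to 0.45 (Cd63) with a median of -0.02. The Fabp5 value ran from -0.74 without NEMO knockout replicate 1 to -0.20 without labelled double knockout replicate 1, and that of Gpnmb was 0.26 without labelled double knockout replicate 2. At an unadjusted p under 0.05 there were 4 of the 9 genes, against 7.46% of all probe sets. Gpnmb (0.40 ± 0.15, 95% interval 0.07 to 0.74) and Cd63 (0.45 ± 0.18, 0.03 to 0.86) were on the higher side. Cd9 (-0.32 ± 0.11, -0.57 to -0.07) and Trem2 (-0.24 ± 0.10, -0.45 to -0.02) were on the lower side. Their limma adjusted p-values were 0.564, 0.632, 0.54 and 0.626, so none was called. For Clec7a (-0.35 to 0.22), Cd68 (-0.19 to 0.36) and Lgals3 (-0.04 to 0.47) the intervals left room for differences of at most 0.47 either way. Those of Lpl (-0.64 to 0.60) and Fabp5 (-1.18 to 0.28) were wider.

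Across the 9 arrays the 8 genes other than Fabp5 correlated with each other at r = 0.83 to 0.99 (28 pairs), which mostly restates that wild type was low in each. Fabp5 correlated with them at r = -0.72 to -0.43. With each genotype's mean taken away, the sign for Fabp5 was the other one: its deviations correlated with those of the 8 genes at r = 0.19 to 0.76, highest with Lpl. The median was 0.47, against 0.43 for the 28 pairs without Fabp5 (-0.31 to 0.92). Positive correlation of deviations was therefore not particular to Fabp5. The points share arrays and normalisation, and these values are a description of 9 arrays.

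The genes whose profile over the 9 arrays was most like that of Trem2 were Ptgis, which encodes prostacyclin synthase (Pearson r = 0.990), the nuclear receptor gene Nr4a3 (0.985), Tgfbi, which encodes a secreted matrix protein (0.984), Rftn1, which encodes a lipid raft protein (0.980), and Ifi27l2b (0.979). Like Trem2, their means were highest in the NEMO knockout, as for Tgfbi at 10.6 in the labelled double knockout, 10.8 in the NEMO knockout and 9.88 in wild type. They were picked for the highest r, which mostly restates that wild type was low. Nr4a3 was under 6.53, the median of all probe set means, in every group (5.14, 5.28 and 4.78 in the same order). Rftn1 was under it in wild type (6.17).

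A wider list of 36 measured genes of the TREM2 pathway and of lipid and lysosome handling had 16 genes higher and none lower in each comparison with wild type. Over all probe sets 5.81% were called higher in the labelled double knockout and 5.66% in the NEMO knockout, with 3.51% and 2.02% lower. The medians were 0.25 in the labelled double knockout and 0.33 in the NEMO knockout. The largest increases were in Mmp12, the macrophage elastase (3.67 ± 0.28 in the labelled double knockout and 3.51 ± 0.28 in the NEMO knockout), the fatty acid transporter Cd36 (2.35 ± 0.10 and 2.001 ± 0.10), the proton pump subunit Atp6v0d2 (1.75 ± 0.33 and 1.52 ± 0.33) and the integrin Itgax (1.48 ± 0.17 and 1.62 ± 0.17). The genes that follow in this paragraph were picked after their values were seen, as the signalling chain and general lysosome genes. Tyrobp, the adaptor that TREM2 needs, read 9.49, 9.61 and 9.67 in the labelled double knockout, 9.49, 9.76 and 9.69 in the NEMO knockout and 8.42, 8.57 and 8.61 in wild type. It rose by 1.06 ± 0.09 (limma adjusted p = 0.00024) and 1.11 ± 0.09 (limma adjusted p = 0.00025). Syk rose by 0.49 ± 0.09 and 0.69 ± 0.09, and Plcg2, the phospholipase below SYK, by 0.35 ± 0.09 and 0.56 ± 0.09. Other members of the chain were not called: Hcst, which encodes the adaptor DAP10, was at -0.01 ± 0.10 and -0.13 ± 0.10, and Card9, an adaptor below SYK, at 0.06 ± 0.06 and 0.05 ± 0.06. Lysosome genes of the list were mixed. The proteases Ctss (1.22 ± 0.13 in the labelled double knockout and 1.42 ± 0.13 in the NEMO knockout), Lgmn (0.77 ± 0.11 and 0.79 ± 0.11), Ctsd (0.52 ± 0.06 and 0.48 ± 0.06) and Ctsb (0.33 ± 0.06 and 0.31 ± 0.06) rose in both. So did the cholesterol carrier gene Npc2 (0.36 ± 0.08 and 0.43 ± 0.08), and the acid lipase gene Lipa rose in the labelled double knockout (0.23 ± 0.06) and was at 0.22 ± 0.06 in the NEMO knockout. Not called were the protease Ctsl (0.10 ± 0.07 and 0.27 ± 0.07), the membrane protein genes Lamp1 (0.09 ± 0.06 and 0.06 ± 0.06) and Lamp2 (-0.04 ± 0.06 and -0.03 ± 0.06), and Tfeb, a transcription factor for lysosome genes (0.10 ± 0.08 and 0.01 ± 0.08).

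Of 20 measured ligands, receptors and transcription factors around the markers, 8 were higher and 1 lower in the labelled double knockout and 9 were higher and none lower in the NEMO knockout. Over all probe sets 5.81% were called higher and 3.51% lower in the labelled double knockout, and 5.66% higher in the NEMO knockout. The 1 of 20 called lower is near its share. The monocyte chemokine receptor gene Ccr2 (1.10 ± 0.15 and 1.26 ± 0.15), Spi1, which encodes PU.1 (0.99 ± 0.10 and 1.005 ± 0.10), and Cd44, a receptor for osteopontin (0.83 ± 0.17 and 0.95 ± 0.17), rose in both. The interferon regulatory factor Irf8 (0.68 ± 0.10 and 0.90 ± 0.10) and the lipid-sensing nuclear receptor Pparg (0.88 ± 0.13 and 0.83 ± 0.13) also rose in both. The gene called lower in the labelled double knockout was Lmf1, which encodes a factor that lipoprotein lipase needs for folding (-0.47 ± 0.09, limma adjusted p = 0.00859). It was at -0.29 ± 0.09 in the NEMO knockout (limma adjusted p = 0.0808). Gpihbp1, which anchors the lipase to capillaries, was at 0.04 ± 0.08 and 0.01 ± 0.08.

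Among relatives of the markers, 9 of 33 measured family members were higher in each comparison with wild type, and 1 was lower in the labelled double knockout. Over all probe sets 5.81% were called higher and 3.51% lower in the labelled double knockout, and 5.66% higher in the NEMO knockout. The 1 of 33 called lower is near its share. Among galectins, Lgals1 (1.89 ± 0.18 in the labelled double knockout and 2.25 ± 0.18 in the NEMO knockout) rose, and the galectin-3 binding protein gene Lgals3bp (0.40 ± 0.08 and 0.50 ± 0.08) rose as well. Among tetraspanins, Cd53 (0.99 ± 0.08 and 1.23 ± 0.08), Cd151 (0.41 ± 0.09 and 0.45 ± 0.09) and Cd37 (0.30 ± 0.07 and 0.34 ± 0.07) rose, and Cd82 was lower in the labelled double knockout (-0.33 ± 0.07, limma adjusted p = 0.0216). Of the C-type lectins in the family list, Clec12a (1.34 ± 0.11 and 1.41 ± 0.11) and Clec4n, Dectin-2 (1.12 ± 0.24 and 1.39 ± 0.24), rose, and Clec1b (0.53 ± 0.11) rose in the labelled double knockout. The fatty acid-binding protein gene Fabp7 rose (0.43 ± 0.11 and 0.59 ± 0.11), and Treml4 rose in the NEMO knockout (0.59 ± 0.11). The neutrophil and monocyte receptor gene Trem1 was at -0.07 ± 0.10 and 0.11 ± 0.10 and was not called.

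Marker lists of other cell types moved beside the scar macrophage genes, and their part in these results was not tested. In the resident Kupffer cell list 7 of 12 genes rose and 1 fell in each comparison with wild type. Of all probe sets, 5.81% were called higher and 3.51% lower in the labelled double knockout, and 5.66% and 2.02% in the NEMO knockout. Adgre1, among the genes that rose, is used below as a general macrophage gene, so the count for this list does not single out Kupffer cells. The mean level of that list was 9.24 to 9.33 on the labelled double knockout arrays, 9.14 to 9.37 on the NEMO knockout arrays and 8.73 to 8.88 in wild type. The genes that rose were the scavenger receptor Marco (0.92 ± 0.21 in the labelled double knockout and 1.03 ± 0.21 in the NEMO knockout), Adgre1 (0.93 ± 0.13 and 0.99 ± 0.13), Cd5l (0.89 ± 0.08 and 0.90 ± 0.08), the complement genes C1qa (0.76 ± 0.07 and 0.67 ± 0.07), C1qb (0.85 ± 0.07 and 0.95 ± 0.07) and C1qc (1.04 ± 0.10 and 0.89 ± 0.10), and Vsig4, a complement receptor (0.70 ± 0.09 and 0.45 ± 0.09). Clec4f, confined to Kupffer cells in the mouse, was at 0.22 ± 0.09 in the labelled double knockout and 0.15 ± 0.09 in the NEMO knockout, Timd4 at -0.17 ± 0.15 and 0.09 ± 0.15, neither called, and the scavenger receptor Cd163 fell by 1.08 and 1.85 on the log2 scale. Of 10 measured monocyte markers 6 rose in each, such as Ms4a7 (1.72 ± 0.16 and 1.56 ± 0.16) and Lyz2 (1.27 ± 0.12 and 1.25 ± 0.12). Stellate cell and fibroblast markers had 9 of 12 higher in each, Lum most (2.51 ± 0.16 and 2.50 ± 0.16), with list means of 9.36 to 9.49, 9.37 to 9.60 and 8.26 to 8.45 in the labelled double knockout, the NEMO knockout and wild type.

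Cholangiocyte markers had 3 of 9 higher in the labelled double knockout and 4 of 9 in the NEMO knockout, led by Cd24a (1.26 ± 0.28 and 1.56 ± 0.28), while Krt19 (0.23 ± 0.11 and 0.14 ± 0.11) and Krt7 (0.15 ± 0.14 and 0.10 ± 0.14) were not called. None of 6 platelet, 6 adipocyte and 11 hepatocyte markers was called in either comparison. Of all probe sets, 9.32% were called in either direction in the labelled double knockout and 7.68% in the NEMO knockout. In lists this short, having no call is near those shares and does not show that these cell types were unchanged. The adipocyte-defining gene Adipoq lay between 3.76 and 3.95 on all 9 arrays. The counts in the lists that follow are small, and 5.81% of all probe sets were called higher in the labelled double knockout and 5.66% in the NEMO knockout. Of dendritic cell markers 1 of 8 was higher in the labelled double knockout (Flt3, 0.43 ± 0.09) and 3 of 8 in the NEMO knockout (Xcr1, Siglech and Flt3, 0.36 to 0.43). Neutrophil markers had 0 and 1 of 10 higher (Retnlg, 0.76 ± 0.18 in the NEMO knockout) and T, NK and B cell markers 0 and 3 of 10 (Cd3g, Ncr1 and Nkg7, 0.73 to 0.91). The 0 or 1 of 10 neutrophil markers and 1 of 8 dendritic cell markers are near those shares. Among 8 osteoclast markers Mmp9 was lower in the labelled double knockout (-0.53 ± 0.14), where 3.51% of all probe sets were called lower. None was called in the NEMO knockout.

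**Figure D3:**
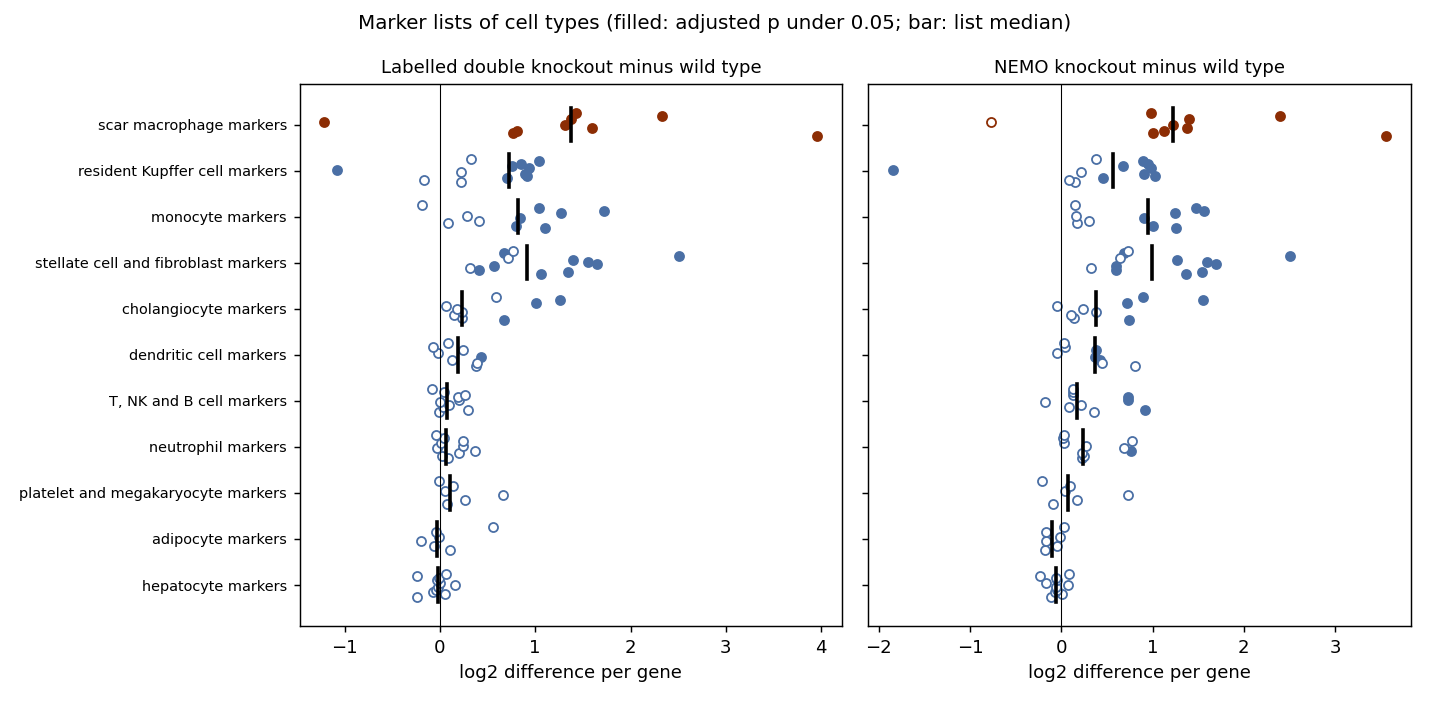
Log2 difference of each measured gene in 11 marker lists, labelled double knockout minus wild type on the left and NEMO knockout minus wild type on the right, with filled points past the adjusted threshold and a bar at the list median. The scar macrophage medians (1.37 and 1.22) lie above those of the Kupffer cell (0.73 and 0.56), monocyte (0.82 and 0.95) and stellate cell lists (0.91 and 0.997), and hepatocyte, adipocyte and platelet genes have no filled point.

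The increases were then set against those of general macrophage genes on the same arrays, with reference genes chosen after seeing the data. Adgre1, which encodes F4/80, rose by 0.93 ± 0.13 in the labelled double knockout and 0.99 ± 0.13 in the NEMO knockout, and Csf1r, the receptor for macrophage growth factor, by 0.51 ± 0.10 and 0.58 ± 0.10. Beyond Adgre1, Gpnmb differed by 3.03 ± 0.28 and 2.57 ± 0.11 (SE), Clec7a by 1.39 ± 0.26 and 1.41 ± 0.15 and Lgals3 by 0.66 ± 0.24 and 0.39 ± 0.14, with no overlap between the groups (exact permutation p = 0.1 each, 2-sided, the smallest that 3 against 3 allows, and 0.208 after Benjamini-Hochberg adjustment over 54 such comparisons). Trem2 was at -0.17 ± 0.20 and 0.02 ± 0.21 beyond Adgre1, and Cd9 at -0.13 ± 0.19 and 0.14 ± 0.14 (exact permutation p = 0.5, 1, 0.6 and 0.4). Cd68 (0.38 ± 0.25 and 0.24 ± 0.16) and Lpl (0.44 ± 0.46 and 0.41 ± 0.36) also overlapped wild type relative to Adgre1. Cd63 was at 0.50 ± 0.24 in the labelled double knockout, with no overlap, and at -0.0045 ± 0.25 in the NEMO knockout, with overlap. Relative to Csf1r, which rose less, the values were higher. Trem2 was at 0.25 ± 0.14 with overlap and 0.42 ± 0.13 without, Cd63 at 0.92 ± 0.20 without and 0.40 ± 0.17 with overlap. Cd9 (0.29 ± 0.15 and 0.55 ± 0.05), Cd68 (0.80 ± 0.21 and 0.64 ± 0.16), Lgals3 (1.08 ± 0.20 and 0.80 ± 0.15) and Lpl (0.86 ± 0.41 and 0.82 ± 0.30) did not overlap wild type (exact permutation p = 0.1 each). For Cd9 and Trem2, and for Cd63 in the NEMO knockout, whether the value lay near 0 thus depended on which macrophage gene was used. Fabp5 was below both, by 2.14 and 1.75 on the log2 scale relative to Adgre1. These values show unequal change between genes and not in which cells it took place.

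**Figure D4:**
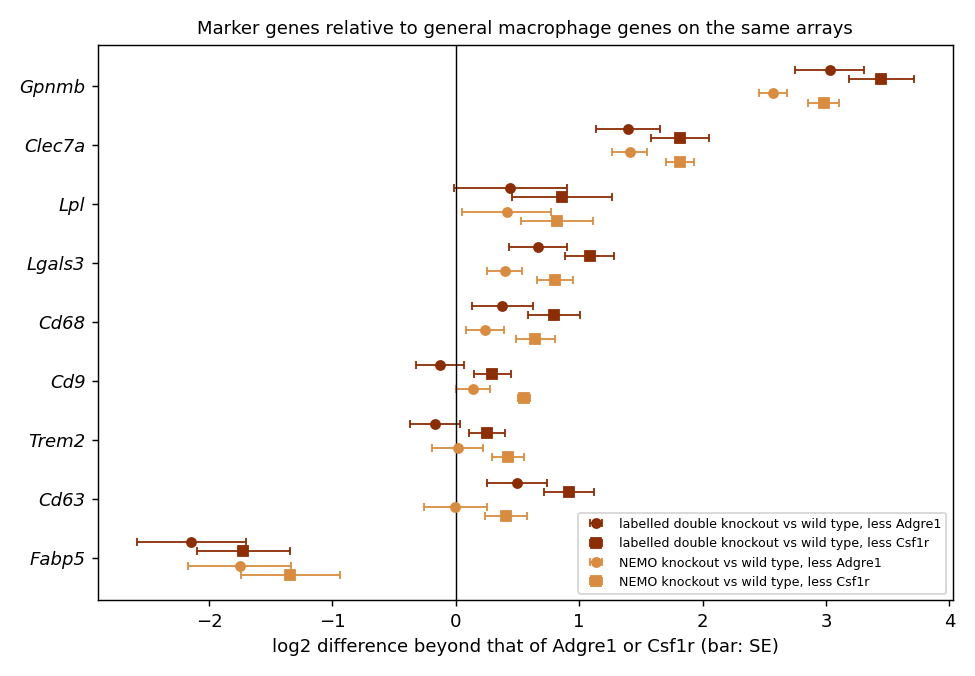
Log2 difference of each marker gene from wild type beyond that of Adgre1 (circles) or Csf1r (squares) on the same arrays, with SE, for the labelled double knockout and the NEMO knockout. Gpnmb (2.57 to 3.45) and Clec7a (1.39 to 1.82) are far to the right of 0, and Fabp5 is to the left. Trem2 lies near 0 relative to Adgre1, and at 0.25 and 0.42 relative to Csf1r.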

How the data were processed

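The authors deposited 1 log2 value per probe set for each array, made with RMA per the submitters' processing notes. RMA corrects background, quantile normalises and combines probes by median polish. The log base was taken from RMA and from the values. Versions and filters: not given in the sources used here. Because of the quantile step, a change in total RNA per liver cannot show. The table has 35556 probe sets, of which 6617 (18.6%) with identifiers below the first annotated one were taken as controls and left out. The other 28939 were tested. Of these, 21789 had 1 gene symbol, 1621 several and 5529 none; 21698 matched the RefSeq gene table (GRCm38.p6) by gene identifier.

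A linear model with a mean for each genotype was fitted to the 9 arrays together (lmFit and eBayes, limma 3.58.1, R 4.3.3). Benjamini-Hochberg adjustment ran over all 28939 probe sets. Errors are SE unless stated. Differences relative to Adgre1 and Csf1r used exact permutation tests in scipy 1.17.1. Arrays give no read depth, and their number limits the precision. Replicate numbers in the titles were checked for pairing. Deviations of same-numbered arrays correlated at -0.12 to 0.39, and those of differently numbered arrays at -0.30 to 0.18. Between the knockout groups the same-numbered arrays were at 0.39, 0.08 and 0.25 and the others at -0.30 to 0.11. The labels state no pairing, and the main fit did not pair the samples. Whether same-numbered knockout arrays share a source was not tested, and a replicate block was fitted as an alternative.

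The markers and lists were chosen with earlier results of these data known. All 10 markers were named, then up to 4 called genes with the largest change per list and comparison, every called relative, and the 5 genes most like Trem2 by Pearson correlation. In the monocyte, stellate cell and cholangiocyte lists only some of those called genes were named. Genes outside this rule are Lmf1, Tyrobp, Syk, Plcg2, Hcst, Card9, Ctss, Lgmn, Ctsd, Ctsb, Ctsl, Npc2, Lipa, Vsig4, Cd5l, C1qa, Lamp1, Lamp2, Tfeb, Gpihbp1, Trem1, Csf1r, Clec4f, Timd4, Krt19, Krt7, Adipoq and Alb. Promoter sequences are those of RefSeq, build GRCm38.p6. Alternatives were other scalings, filters, variance models, array weights, 2-group fits, a replicate block and leaving out each array.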

Additional observations from a re-analysis of the deposited data

How the results depend on the processing

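All 8 increases against wild type kept their direction and their call under each alternative in both comparisons, except Lpl in the NEMO knockout, which lost its call without NEMO knockout replicate 3. Fabp5 kept its direction throughout. With 1 array left out, the markers called numbered 7 to 8 in the NEMO knockout and 8 to 9 in the labelled double knockout against wild type, and 0 between the knockout groups. Calls over all probe sets then ran from 1382 (without NEMO knockout replicate 3) to 2335 in the NEMO knockout, against 2222 with all arrays, from 1601 (without labelled double knockout replicate 3) to 2720 in the labelled double knockout, against 2696, and from 10 to 44 between the knockout groups, against 57. That last count was 31 with arrays centred on their medians, 28 with control probe sets included, 23 with only the 2 groups fitted and 18 with the replicate block, which changed no call of a marker. It was 49 with only probe sets above the median of all means and 58 with cyclic loess. With an intensity trend it was 66, with quantile normalisation 73 and with array weights 78. Between the knockout groups, with 1 array left out, Fabp5 ran from -0.74 to -0.20, Gpnmb from 0.26 to 0.53, Cd9 from -0.41 to -0.22, Cd63 from 0.30 to 0.63 and Lgals3 from 0.10 to 0.31, none called, and Fabp5 in the NEMO knockout against wild type ran from -1.02 to -0.47. Differences near 0 changed sign when 1 array was left out: Lpl ran from -0.26 to 0.18, Clec7a from -0.21 to 0.0057 and Cd68 from -0.010 to 0.19; the cause was not tested. Centring moved the share of higher calls from 73.7% to 52.7% in the NEMO knockout and from 62.3% to 44.1% in the labelled double knockout against wild type, and from 43.9% to 54.8% between the knockout groups. Signal over background was not given for these arrays, which limits what the low wild type values of Gpnmb and Clec7a can show. The same limit holds for other genes with wild type means under 6.53, such as Mmp12 (5.57), Itgax (5.59), Ccr2 (4.88), Ms4a7 (4.76) and Clec4n (4.58). The means of Ccr2, Ms4a7 and Clec4n were under 6.53 in both knockout groups too, as were those of Retnlg, Xcr1, Cd3g and Ncr1.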
